A study of Mus musculus with 8 samples.

Results

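The genes described here encode the proteins of the cytosolic ribosome. They are the rows of the deposited count table whose mouse symbol is Rpl (large subunit) or Rps (small subunit) followed by a number and at most one letter a or x. That pattern found 71 of the 37558 genes in the table, 42 of the large subunit and 29 of the small subunit. The family was chosen as a subject with its counts in all 8 libraries in view, so every value below is a description and none is a test. It leaves out 8 core ribosomal proteins that carry other symbols, their paralogs and the pseudogene copies. Those found by symbol are given separately further on. Rpl24, whose symbol has the form of the pattern, is also not among the 71 genes and is not described.

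The cells were of the mouse line P19, embryonal carcinoma cells that can form nerve or muscle in culture. Each culture was infected with lentivirus in the presence of polybrene and was moved to a neuronal medium, Neurobasal with B27 and glutamine, after 48 hours. The viruses carried the WCS mutant of the MD(ND2bHLH) chimera at an MOI of 100 (MOI, the multiplicity of infection), the WCS mutant, the WC mutant, the chimera at MOI 100, the chimera, MyoD, NeuroD2 or, as the control, GFP. The chimera is MyoD with its basic helix-loop-helix (bHLH) DNA-binding domain replaced by that of NeuroD2. MyoD drives skeletal muscle formation and NeuroD2 drives the formation of neurons. The labels do not define WC and WCS, and they give no MOI for the other 6 cultures and no time of harvest. Each of the 8 groups was 1 culture with 1 oligo-dT selected library, so no difference between groups had a replicate check. The labels name a spin column kit or Trizol for extraction, without saying which library got which.

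A ribosome holds a single copy of nearly every ribosomal protein, and cells make these proteins from single-copy genes whose mRNAs are among the most abundant in growing cells. In mammals, transcription of these genes follows growth signals such as Myc, and translation of their mRNAs is held under the kinase mTOR through a run of pyrimidines at the very start of the transcript, the terminal oligopyrimidine tract. Proliferating stem cells are known to make ribosomes at a high rate, and the rate declines in many lineages as cells leave the cell cycle and mature.

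Runs of pyrimidines lay near the annotated start sites of some of these genes. They were counted anywhere in the windows described next, before or after the start, so they need not be terminal tracts. RefSeq start regions on build GRCm38.p6 were at hand for 52 of the 71 genes, in 62 windows of 50 bases around an annotated start. An uninterrupted run of at least 10 pyrimidines lay in 35.5% of those windows, against 9.28% of the 32851 windows of all genes in the same RefSeq table. The mirror feature, a run of at least 10 purines, lay in 0% of the family's windows and in 10.1% of all windows. Read as in the transcript, the letters CTTTCC lay in 16.1% of the family's windows and 2.46% of all windows. Their reverse complement GGAAAG lay in 1.61% and 2.25%. The letters CCGGAAGT, searched on both strands of the full 300 bases, were found in 16.1% of the family's windows and 3.89% of all. A match is only a match of letters and shows no binding. The 30-base windows below run 5′ to 3′ along the transcript with the annotated start at base 16, and capitals mark the longest pyrimidine run in the window. The first 6 are shown because their runs are long, and the last 3 because these genes, described below, have short ones. The coordinates are those of Rpl7a, chr2:26910792-26910821 on the plus strand; Rpl27a, chr7:109519180-109519209, plus; and Rpl35, chr2:39005117-39005146, minus. They are followed by Rpl15, chr14:18270972-18271001, minus; Rpl13a, chr7:45128731-45128760, minus; and Rps10, chr17:27635230-27635259, minus. The last are Rpl41, chr10:128549154-128549183, minus; Rps2, chr17:24720048-24720077, plus; and Rpl10, chrX:74270801-74270830, plus.
Rpl7a: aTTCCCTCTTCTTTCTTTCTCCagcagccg
Rpl27a: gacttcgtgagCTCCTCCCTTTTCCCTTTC
Rpl35: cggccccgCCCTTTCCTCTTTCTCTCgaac
Rpl15: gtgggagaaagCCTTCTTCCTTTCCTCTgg
Rpl13a: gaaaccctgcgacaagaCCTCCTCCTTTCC
Rps10: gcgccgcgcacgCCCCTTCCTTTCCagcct
Rpl41: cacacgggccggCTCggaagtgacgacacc
Rps2: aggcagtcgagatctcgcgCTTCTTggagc
Rpl10: gttgttacagtggaagataggccgCCTata

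Library totals ran from 26410500 counts (chimera) to 43984066 counts (GFP). Levels are CPM (counts scaled to a common library size) after TMM scaling, which assumes that most genes do not differ between libraries. The delivered genes followed the labels, with Myod1 higher at MOI 100, at 857 CPM for WCS and 555 CPM for the chimera, than without that label, at 77.3 CPM for WCS and 116 CPM for the chimera. The summed level of 6 neuronal markers was 4199 CPM in WCS at MOI 100, 2911 CPM in NeuroD2, 2355 CPM in the chimera at MOI 100 and 227 to 1785 CPM in the other libraries, among them GFP at 270 CPM. The summed level of 6 pluripotency markers was 389 to 1144 CPM in the 7 libraries other than GFP and 2650 CPM in GFP, with Dppa5a at 0 to 0.05 CPM in all 8. Sox2, 1 of the 6, did not follow the sum. It had 205 CPM in WCS, 181 in WC, 158 in the chimera, 131 in NeuroD2 and 126 in WCS at MOI 100. In GFP it had 124 CPM, in the chimera at MOI 100 108 and in MyoD 95.7 CPM. The 6 muscle markers summed to 9280 CPM in MyoD, 1163 CPM in the chimera at MOI 100, 776 CPM in the chimera and 12.3 to 45.8 CPM elsewhere. A further feature split the libraries. Rn7s6, a 7S RNA gene whose product has no poly(A) tail, was at 0.565 to 1.28 CPM in the chimera, NeuroD2, the chimera at MOI 100 and WCS at MOI 100, against 13.0 to 16.3 CPM in WC, MyoD, WCS and GFP. Another RNA gene, Rn7sk, had the same libraries lowest but in a graded order. It had 0.384 CPM in NeuroD2, 0.452 in the chimera, 0.868 in the chimera at MOI 100 and 2.07 in WCS at MOI 100. The others had 3.19 CPM in WCS, 3.82 in WC, 4.33 in GFP and 4.99 in MyoD.

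The ribosomal protein genes took a smaller share of all gene counts in every other library than in GFP. The share was 4.01% in WCS at MOI 100, 4.45% in the chimera at MOI 100, 5.24% in NeuroD2 and 7.03% in the chimera. It was 7.38% in MyoD, 7.62% in WC and 7.76% in WCS, against 8.65% in GFP. The exact binomial (Clopper-Pearson) 95% intervals were narrow, 4.004% to 4.018% in WCS at MOI 100 and 8.639% to 8.655% in GFP, but they cover counting error only. The order thus ran from the 2 cultures at MOI 100 and NeuroD2 at the low end, through the chimera, to MyoD, WC, WCS and GFP. The 4 lowest shares were those of the 4 libraries with little Rn7s6, and the 3 lowest were also those of the 3 libraries with the highest neuronal marker sums; the part of either in the result was not tested. A share of bulk RNA cannot tell less ribosomal protein mRNA from more of other mRNA, nor fewer cells of a type from less RNA per cell.

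**Figure D1:**
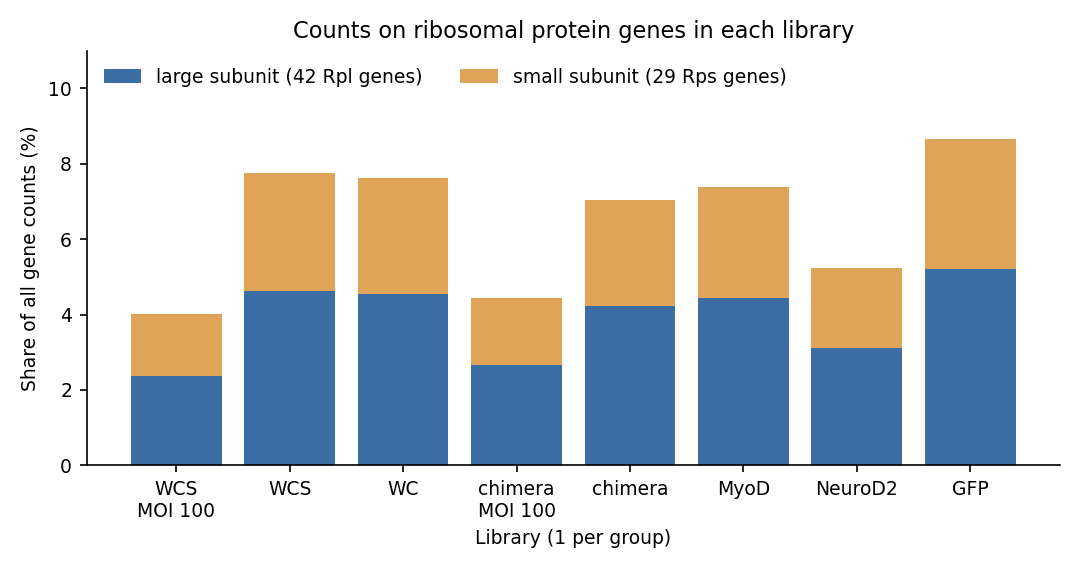
Share of all gene counts, in percent, taken by the 42 large subunit genes (blue) and the 29 small subunit genes (orange) in each of the 8 libraries, 1 library per group. The stacked bars reach from 4.01% in WCS at MOI 100 to 8.65% in GFP, and the proportion of blue to orange hardly moves.

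The subunits kept nearly the same proportion. Large subunit genes held 59.3% to 60.3% of the family's counts in all 8 libraries, and the ratio of large to small subunit counts lay between 1.45 in WCS at MOI 100 and 1.52 in GFP. Among the 100 genes with the highest counts, 17 were ribosomal protein genes in WCS at MOI 100, 19 in the chimera at MOI 100 and 26 in NeuroD2. The chimera had 36, MyoD 39, WC 41 and WCS 41, against 39 in GFP.

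Every one of the 71 genes was counted in every library and averaged at least 313 CPM, so none was lost to the minimum mean of 5 CPM used for tables of all genes. The median member stood at 451 CPM in WCS at MOI 100, 522 CPM in the chimera at MOI 100, 629 CPM in NeuroD2, 876 CPM in the chimera, 1022 CPM in MyoD, 1047 CPM in WCS and 1028 CPM in WC, against 1231 CPM in GFP. All 71 genes were lowest in WCS at MOI 100, and 62 were highest in GFP. Of the 9 others, 7 were highest in WCS (Rpl13a, Rpl17, Rpl37a, Rps14, Rps19, Rps24 and Rps28), Rps15a was highest in the chimera and Rpl21 in MyoD. Some of these places rest on small differences, such as that of Rps15a, with a log2 ratio of 0.00 in the chimera over GFP. The shares of all genes that were lowest in WCS at MOI 100 or highest in GFP were not counted. The ratio of a gene's highest to its lowest CPM ran from 1.64 for Rpl21 to 4.06 for Rpl3, with a median of 2.43. It was above 3 for 10 genes and under 2 for 6.

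Per kilobase of annotated transcript, the most abundant genes by mean level were Rps2 at 3015 CPM per kb, Rpl32 at 2763, Rps18 at 2552, Rpl41 at 2316, Rps12 at 2109 and Rps28 at 1994 CPM per kb. Rps2 sits at the entrance where the ribosome takes in mRNA, and Rpl41 is the smallest protein of the particle. The lowest were Rps20 at 238 CPM per kb, Rpl37 at 554, Rps3 at 559, Rpl27a at 610, Rps24 at 616 and Rps23 at 626 CPM per kb. These low ranks depend on transcript length: the only coding transcript annotated for Rps20 is 3706 bases long, against a median of 729 bases in the family, and the expressed transcript may be shorter. By counts, Rps2, Rpl4 and Rpl3 together held 12.58% of the family's mean CPM. The genes lie on 19 chromosomes, with 13 of them on chromosome 7 and 4 on the X chromosome.

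**Figure D2:**
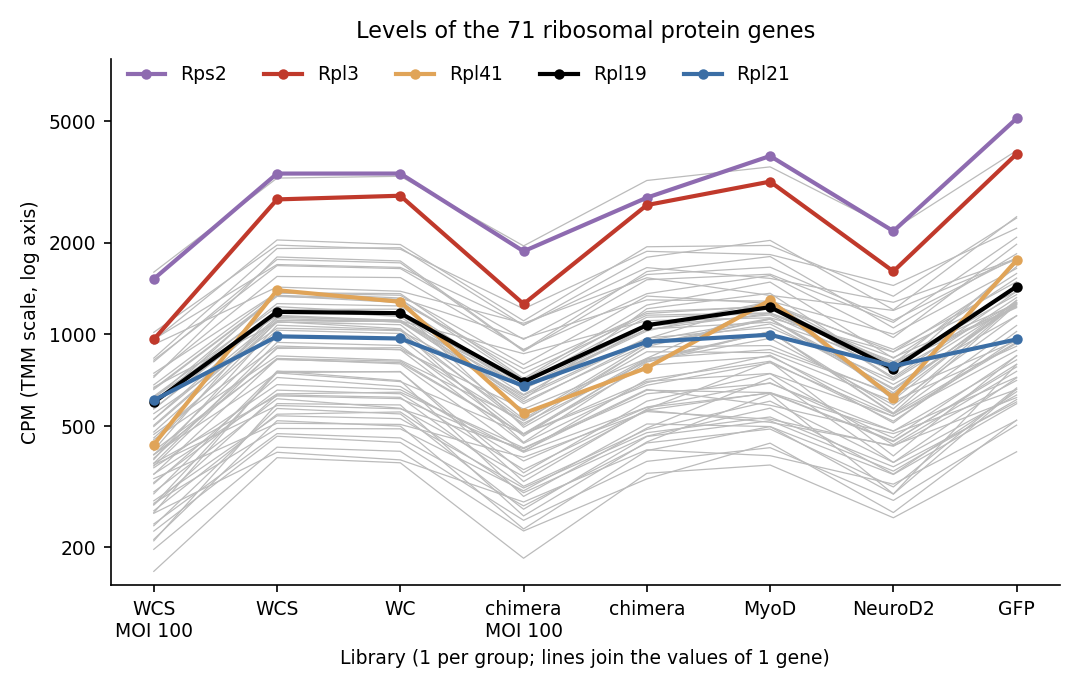
CPM after TMM scaling, on a log axis, of each of the 71 genes (grey lines) in the 8 libraries, with 5 genes in colour; lines join the values of 1 gene. All genes are lowest in WCS at MOI 100, with Rps2 at 1519 CPM there and 5107 CPM in GFP, while Rpl21 varies least, from 607 to 996 CPM.

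A few genes show the range. Rpl3, a core protein near the site where peptide bonds are made, had 962 CPM in WCS at MOI 100, 2771 in WCS, 2849 in WC, 1257 in the chimera at MOI 100, 2654 in the chimera, 3170 in MyoD, 1609 in NeuroD2 and 3906 CPM in GFP. It was lowest in the same 3 libraries as the family share and highest in GFP. Rpl41 had 434 CPM in WCS at MOI 100, 1395 in WCS, 1278 in WC, 549.8 in the chimera at MOI 100, 776 in the chimera, 1294 in MyoD, 619 in NeuroD2 and 1750 CPM in GFP. Its level in the chimera was well under that in MyoD, WC and WCS, where most family members differed little. Rpl21, a large subunit protein, had 607 CPM in WCS at MOI 100, 984 in WCS, 969 in WC, 677 in the chimera at MOI 100, 944 in the chimera, 996 in MyoD, 787 in NeuroD2 and 962 CPM in GFP. GFP was not its highest library, and 5 of the 8 values lay within 944 to 996 CPM. Rpl19, a large subunit protein near the exit of the peptide tunnel, kept the steadiest place in the family. It had 597 CPM in WCS at MOI 100, 1184 in WCS, 1173 in WC, 699 in the chimera at MOI 100, 1071 in the chimera, 1227 in MyoD, 769 in NeuroD2 and 1435 CPM in GFP.

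Of the 13 pairs of libraries, 7 share the GFP library, so their values stand side by side and are not independent. Called here means a difference of at least 1.5-fold on log2(CPM + 0.5), and ratios carry counting intervals only. The family's median log2 ratio was -1.28 in WCS at MOI 100 over GFP, with the summed level 2.50-fold lower. All 71 genes were at least 1.5-fold lower, against 25.4% of the 11746 genes with a mean of at least 5 CPM and 31.4% of the 2452 genes with a mean of at least 100 CPM. Rpl3 was 4.06-fold lower (log2 ratio -2.02, 95% interval of the ratio 0.243 to 0.249), and Rpl41 and Rpl36 followed at log2 ratios of -2.01 and -1.92. The smallest differences were those of Rpl21 at -0.66, Rps15a at -0.82 and Rps4x at -0.88. In the chimera at MOI 100 over GFP the median was -1.05 and 70 of 71 genes were called lower, against 21.7% of all genes, with Rpl21 (-0.51) the exception. The lowest were Rpl41 (-1.67), Rpl36 (-1.65) and Rpl3 (-1.64), and the least lowered beside Rpl21 were Rps15a (-0.65) and Rpl10 (-0.68).

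In NeuroD2 over GFP the median log2 ratio was -0.84 and 65 genes were called lower, against 18.6% of all genes. The lowest were Rpl41 (-1.50), Rpl36 (-1.41) and Rpl3 (-1.28), and the 6 genes under 1.5-fold were Rpl7, Rpl21, Rpl39, Rps4x, Rps9 and Rps15a. In the chimera over GFP the median was -0.39 and 9 genes were called lower, a share of the family near the 11.5% of all genes. Among these were Rpl10a, Rpl36, Rpl38, Rpl41, Rps2, Rps16, Rps21 and Rps29, led by Rpl41 at -1.17, while Rps15a (0.00), Rpl21 (-0.03) and Rps25 (-0.06) were at about the GFP level.

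The remaining 3 libraries differed less from GFP. In MyoD over GFP the median was -0.25 and no gene was called in either direction, against 14.5% of all genes called lower and 16.2% called higher. Values ran from Rps12 (-0.51), Rps10 (-0.45) and Rps29 (-0.45) to Rps19 (-0.03), Rps28 (-0.00) and Rpl21 (0.05). In WC over GFP the median was -0.23 and 3 genes were called lower (Rpl12 at -0.64, Rps12 at -0.61 and Rps2 at -0.60), against 11.7% of all genes. In WCS over GFP the median was -0.21 and 2 genes, Rpl12 (-0.61) and Rps2 (-0.60), were called lower, against 12.6% of all genes. Rps14 was highest in both, at 0.04 in WC over GFP and 0.08 in WCS over GFP. It was joined near the GFP level by Rpl21 (0.01) and Rps19 (-0.01) in WC and by Rps28 (0.07) and Rpl13a (0.07) in WCS. These libraries had 13.0 to 14.4 CPM of Rn7s6, close to the 16.3 CPM of GFP.

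**Figure D3:**
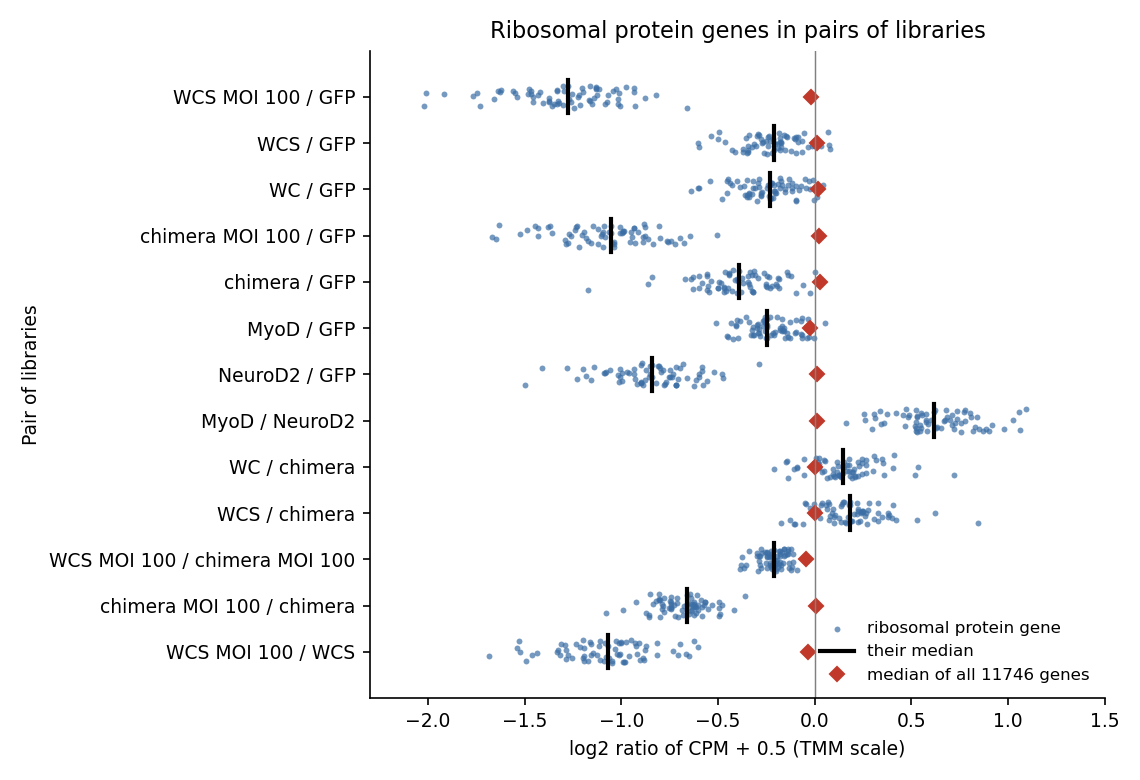
log2 ratio of CPM + 0.5 for each of the 71 genes (blue points, spread vertically for visibility) in 13 pairs of libraries, the first-named library over the second, with the family's median (black bar) and the median of all 11746 genes (red diamond). The family lies furthest left in WCS MOI 100 / GFP, with a median of -1.28, while the medians of all genes stay between -0.05 and 0.03.

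MyoD and NeuroD2, the parent factors, can be compared without GFP. In MyoD over NeuroD2 the family's median log2 ratio was 0.62, and 37 of the 71 genes were at least 1.5-fold higher, against 15.0% of all genes. None was called lower, against 18.9% of all genes. The highest were Rpl36, with 637 CPM in MyoD and 299 CPM in NeuroD2 (2.13-fold, 95% interval 2.08 to 2.19), and Rpl41 (1.06). The lowest were Rpl7 (0.16), Rpl39 (0.25) and Rps4x (0.26), all still higher in MyoD. Rn7s6 was at 13.5 CPM in MyoD and 0.594 CPM in NeuroD2, and the muscle and neuronal markers divided these libraries as the labels say; the part of either was not tested.

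The cultures at MOI 100 can be set beside the cultures of the same construct without that label. In the chimera at MOI 100 over the chimera the median was -0.66 and 57 genes were called lower, against 10.5% of all genes. The lowest were Rpl3 (-1.08), Rpl12 (-0.99) and Rpl22 (-0.92), and the least lowered were Rpl10 (-0.36), Rpl7a (-0.42) and Rpl21 (-0.48). Both libraries had little Rn7s6, at 1.21 CPM in the chimera at MOI 100 and 0.565 CPM in the chimera. The median in WCS at MOI 100 over WCS was -1.07 and all 71 genes were called lower, against 15.2% of all genes. Rpl41 was lowest there at -1.68, with Rps28 (-1.54) next, and Rpl27 (-0.60), Rpl7 (-0.63) and Rps15a (-0.65) were least lowered. Here Rn7s6 differed as well, at 1.28 CPM in WCS at MOI 100 and 14.4 CPM in WCS. In both pairs the library at MOI 100 had more of the delivered Myod1 sequence and higher neuronal marker sums. The sums were 2355 CPM for the chimera at MOI 100 against 680 CPM without the label. For WCS they were 4199 CPM at MOI 100 against 1785 CPM without the label. The part of these values in the result was not tested.

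The mutants differed little from the chimera. In WC over the chimera the median was 0.15 and Rpl41 (0.72) was the 1 gene called higher, against 8.28% of all genes, with Rps28 (0.52) among the next and Rps15a (-0.21), Rpl7 (-0.15) and Rpl12 (-0.14) lowest. In WCS over the chimera the median was 0.18 and 2 genes, Rpl41 (0.85) and Rps28 (0.62), were called higher, against 8.69% of all genes. Rps15a (-0.18), Rpl27 (-0.13) and Rpl12 (-0.11) were lowest. At MOI 100 the order turned round. The median in WCS at MOI 100 over the chimera at MOI 100 was -0.21 and all 71 genes were lower, from Rpl3 (-0.39), Rpl18 (-0.38) and Rpl7a (-0.38) to Rpl32 (-0.11), Rps21 (-0.11) and Rps24 (-0.09), although none reached 1.5-fold, against 8.47% of all genes called lower. For 61 of the 71 genes WCS was higher than the chimera without the label and lower at MOI 100. The share of all genes lower by sign at MOI 100, and the share that turned in this way, were not counted. The medians of all genes were 0.003 without the label and -0.04 at MOI 100. Those of the 2452 genes with a mean of at least 100 CPM were -0.02 and -0.12. Rn7s6 differed in the first of these pairs, at 14.4 CPM in WCS and 0.565 CPM in the chimera, and hardly in the second, at 1.28 CPM in WCS at MOI 100 and 1.21 CPM in the chimera at MOI 100.

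A 2-fold threshold separated the libraries more sharply. It was passed downwards by 64 of the 71 genes in WCS at MOI 100 over GFP, against 14.1% of all genes, by 43 in the chimera at MOI 100 over GFP, against 10.5%, and by 16 in NeuroD2 over GFP, against 7.56%. Rpl41 was the 1 gene that passed it in the chimera over GFP, against 4.02% of all genes, and 0 genes passed it in WC or WCS over GFP, against 3.64% and 4.45%. In the pairs without GFP, 47 genes were 2-fold lower in WCS at MOI 100 over WCS, against 5.10% of all genes, and 1, Rpl3, in the chimera at MOI 100 over the chimera, against 2.84%. In MyoD over NeuroD2, 4 genes, among them Rpl28, Rpl36 and Rpl41, were 2-fold higher, against 7.07% of all genes, a share of the family near the background. In WC and WCS over the chimera 0 genes were 2-fold higher, against 3.17% and 3.54%.

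Grouped by role, the differences were spread through the ribosome. In WCS at MOI 100 over GFP, Rpl5 and Rpl11, which bind the 5S ribosomal RNA and can also bind Mdm2, stood at -1.33 and -1.27. The 8 proteins around the tunnel through which the new protein leaves had a median of -1.23, with Rpl17 lowest (-1.46) and Rpl39 highest (-1.03). The 5 proteins at the mRNA entry and decoding sites had a median of -1.22, from Rps2 (-1.75) to Rps9 (-1.02). Rps6, the substrate of the S6 kinases, was at -1.13, and Rps27a, which is made as a fusion with ubiquitin, was at -1.28. The 9 listed examples of genes mutated in Diamond-Blackfan anaemia, a human disease of red cell formation, had a median of -1.27, from Rps26 (-1.48) to Rps24 (-0.97). All listed members of these groups were called lower, as was the whole family, against 25.4% of all genes.

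The 4 X-linked genes had medians nearer to GFP than the family. Rps4x had a log2 ratio of -0.88 in WCS at MOI 100 over GFP, Rpl39 -1.03, Rpl10 -1.04 and Rpl36a -1.37, a median of -1.04 against -1.28 for the family. Their median was -0.79 in the chimera at MOI 100 over GFP and -0.59 in NeuroD2 over GFP, where the family's medians were -1.05 and -0.84. In MyoD over GFP it was -0.25, as for the family. Rps4x had 963 CPM in WCS at MOI 100, 1694 in WCS, 1658 in WC, 1072 in the chimera at MOI 100, 1655 in the chimera, 1525 in MyoD, 1273 in NeuroD2 and 1771 CPM in GFP. Only 4 genes make up this group, and Rpl36a lay on the other side of the family median.

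Within the family, each gene's share of the ribosomal protein counts does not depend on the scaling of the libraries. The widest ranges between a gene's highest and lowest share, on the log2 scale, were those of Rpl41 (0.77), Rpl3 (0.70), Rpl21 (0.66), Rpl36 (0.60), Rpl7 (0.56) and Rpl10 (0.51). The narrowest were those of Rpl19 (0.10) and Rpl11 (0.10), and the median gene had 0.26. Rpl41 took 1.18% of the family's counts in WCS at MOI 100, 1.78% in WCS, 1.67% in WC, 1.27% in the chimera at MOI 100, 1.11% in the chimera, 1.64% in MyoD, 1.23% in NeuroD2 and 1.89% in GFP. Rpl7 ran the other way, with 2.51% in WCS at MOI 100, 1.82% in WCS, 1.804% in WC, 2.50% in the chimera at MOI 100, 2.19% in the chimera, 1.70% in MyoD, 2.37% in NeuroD2 and 1.91% in GFP. For Rpl7 the 4 highest shares, and for Rpl41 the 4 lowest, were those of the libraries with little Rn7s6.

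That split held for 33 of the 71 genes. The share was lower in all 4 libraries with little Rn7s6 than in any of the 4 others for 13 genes, among them Rpl10a, Rpl28, Rpl36, Rpl38, Rpl41, Rps15, Rps16, Rps20, Rps21, Rps26 and Rps28. It was higher in all 4 for 20 genes, among them Rpl7, Rpl7a, Rpl10, Rpl21, Rpl27, Rpl34, Rpl39, Rps4x, Rps6 and Rps15a. Set against the same family sum, 0.758% of all 11746 genes were lower and 39.0% higher without overlap, the sum itself being low in those libraries. The 20 genes higher were thus a smaller share of the family than 39.0%, and the 13 genes lower a larger share than 0.758%. On CPM, 54 members were lower in all 4 without overlap and 0 higher, against 8.25% and 6.50% of all genes. The 13 genes had a median transcript GC share of 54.2% and a median length of 681 bases, and the 20 genes had 50.4% and 775 bases, with ranges that overlapped widely. Across the whole family the genes below the median GC share had a median log2 ratio of -1.22 in WCS at MOI 100 over GFP, and those at or above it -1.34; the part of base composition was not tested.

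**Figure D4:**
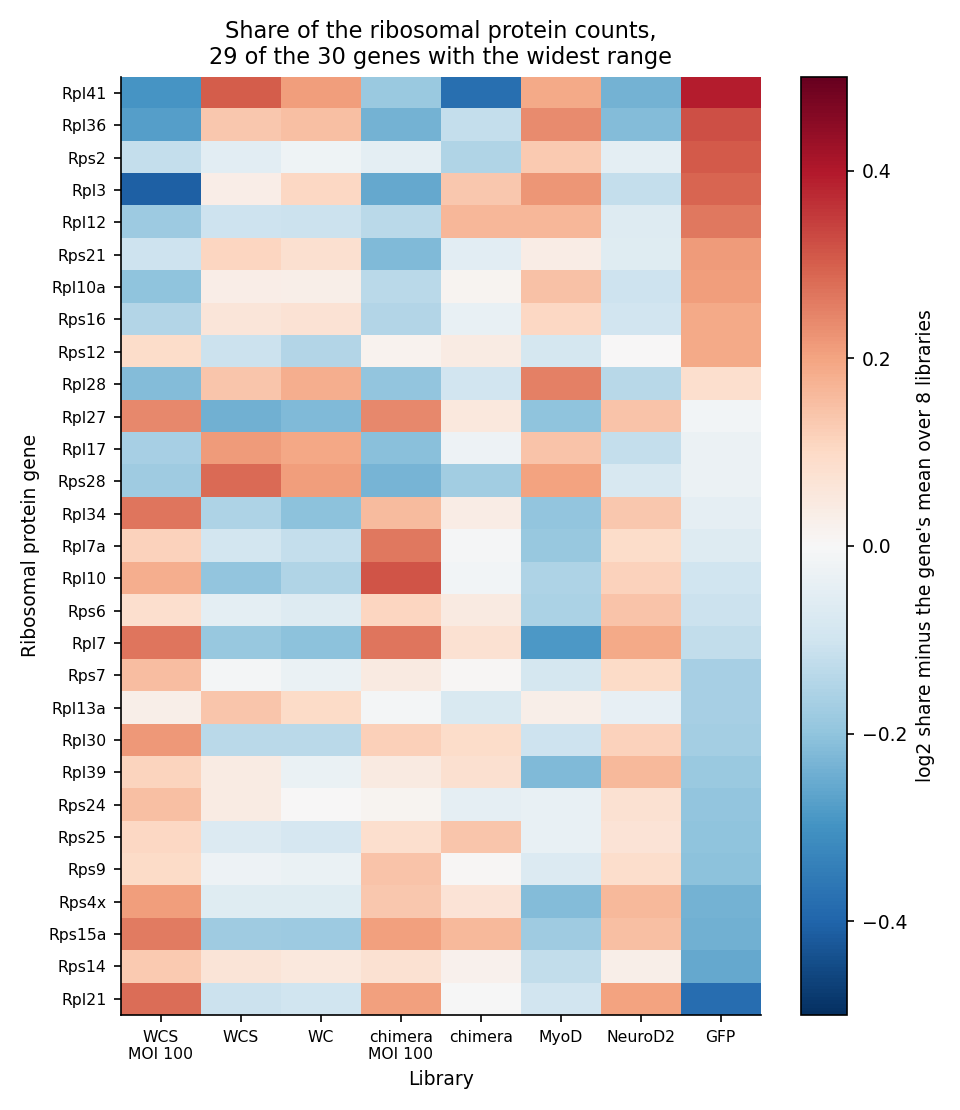
log2 of each gene's share of the ribosomal protein counts minus that gene's mean over the 8 libraries, for 29 of the 30 genes with the widest range (rows) in the 8 libraries (columns); red is a higher and blue a lower share. Rpl41 and Rpl36 are blue and Rpl7 and Rpl10 red in both libraries at MOI 100 and in NeuroD2, and in the chimera Rpl41 is deep blue and Rpl10 near white. GFP holds the highest share of Rpl41 and the lowest of Rpl21.

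The 8 core ribosomal proteins whose symbols fall outside the pattern behaved alike. Among them are the stalk proteins Rplp0, Rplp1 and Rplp2, the small subunit proteins Rpsa, Rps3a1 and Fau, and the scaffold Rack1. In WCS at MOI 100 over GFP their median log2 ratio was -1.35, from Rplp1 (-1.59) to Rps3a1 (-1.07). All 8 were called lower there, against 25.4% of all genes. In the chimera at MOI 100 over GFP and in NeuroD2 over GFP all 8 were again called lower, against 21.7% and 18.6% of all genes. The medians were -1.14 and -0.97. In MyoD over GFP the median was -0.21 and 1 of the 8, Rplp0 (-0.62), was called lower, a share near the 14.5% of all genes. Rplp0 had 1266 CPM in WCS at MOI 100, 2540 in WCS, 2492 in WC, 1477 in the chimera at MOI 100, 2403 in the chimera, 2422 in MyoD, 1724 in NeuroD2 and 3731 CPM in GFP.

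Of 10 paralogs listed, 9 were found in the table and 4 reached a mean of 5 CPM. These 4 were Rpl22l1, Rpl36al, Rpl7l1 and Rps27l. All were called lower in WCS at MOI 100 over GFP, against 25.4% of all genes, from Rpl22l1 (-1.37) to Rpl36al (-0.91). Per length, Rpl36al made up 28.4% of the Rpl36a and Rpl36al pair in WCS at MOI 100, 30.1% in the chimera at MOI 100, 23.6% in NeuroD2 and 22.8% in the chimera. It made up 21.7% in MyoD, 19.2% in WC and 19.1% in WCS, against 22.4% in GFP. The part of Rpl36al was thus largest in the 2 libraries at MOI 100. Rps27l made up 16.6% of its pair with Rps27 in WCS at MOI 100, 18.1% in the chimera at MOI 100 and 16.1% in NeuroD2, against 10.7% to 13.5% in WC, WCS, MyoD and the chimera and 15.7% in GFP. Rpl22l1 made up 26.3% to 33.1% of its pair with Rpl22 in the 8 libraries. Rpl3l, the paralog of Rpl3 made in striated muscle, had 8 counts (0.31 CPM) in MyoD, 1 in the chimera at MOI 100, 2 in the chimera and 2 in GFP, and 0 in the other 4 libraries. Rpl10l, Rpl39l, Rps4l and Rps27rt had at most 1.53 CPM in any library. Genes of near-identical sequence, and the pseudogenes, can exchange reads in a way that depends on the counting. How alike each pair is was not measured, and the counting is not given in the sources used here.

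The pseudogenes named after ribosomal protein genes, with symbols that start with Rpl or Rps and hold -ps, were a small part. Copies under other symbols or without a symbol were not counted. Of 195 such rows, 141 had a count and 11 averaged at least 5 CPM. These rows held 0.360 to 0.391 counts per 100 counts of the ribosomal protein genes in the 7 libraries other than GFP and 0.563 in GFP.

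Other gene groups of protein synthesis and energy supply give a scale, from lists chosen with earlier results of these data known. In WCS at MOI 100 over GFP the 38 translation factors measured had a median log2 ratio of -0.73, with 27 called lower and 2 higher, against 25.4% of all genes called lower and 26.7% called higher. The lowest were Pabpc1 (-1.36), which binds poly(A) tails, and Eif5a (-1.35), while Eif4g2 (1.14) and Eif5 (0.82) were the 2 called higher. The 61 ribosome assembly genes had a median of -0.64 with 32 called lower and 1 higher, from Lyar (-1.71) and Nop10 (-1.67) to Ltv1 (0.58) and Taf1c (1.26). The 87 subunits and assembly factors of oxidative phosphorylation had -0.48 with 35 called lower. The 77 mitochondrial ribosomal proteins had -0.41 with 24 called lower and 1 higher, and the 35 proteasome subunits -0.44 with 11 called lower. The called shares of these last 2 lists, 31.2% and 31.4%, were near the 25.4% of all genes and the 31.4% of genes with a mean of at least 100 CPM. All 6 lists thus had medians under that of all genes (-0.02), and the cytosolic ribosomal proteins had the lowest. Genes with a mean of at least 100 CPM had a median of -0.23, to which the proteasome and the mitochondrial ribosomal proteins were nearer. In the chimera at MOI 100 over the chimera the family's -0.66 stood beside -0.34 for translation factors, -0.26 for ribosome assembly, -0.12 for mitochondrial ribosomal proteins, -0.09 for oxidative phosphorylation and -0.02 for the proteasome.

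In NeuroD2 over GFP the translation factors had a median of -0.53 with 16 called lower and 2 higher, against 18.6% of all genes called lower and 23.6% called higher, from Eif5a (-1.05) and Eif4b (-1.01) to Eif5 (0.83) and Eif4g2 (0.93). The assembly genes had -0.40 with 21 called lower and 2 higher, from Lyar (-1.18) and Nop10 (-1.16) to Ltv1 (0.69) and Taf1c (0.91). Oxidative phosphorylation had -0.39 with 25 called lower, from Cox6b2 (-1.93) and Ndufaf3 (-1.18) to Ndufb2 (0.25) and Ndufaf4 (0.27). The proteasome had -0.31 with 5 called lower, from Psma3 (-0.84) and Psmb3 (-0.81) to Psmd10 (0.14) and Psmd6 (0.19). The mitochondrial ribosomal proteins had -0.29 with 18 called lower and 1 higher, from Mrpl38 (-1.13) and Mrpl57 (-1.13) to Mrpl50 (0.46) and Mrpl20 (0.60). The shares called lower were thus near that of all genes for these last 2 lists, at 14.3% of the proteasome and 23.4% of the mitochondrial ribosomal proteins. All 5 medians lay between that of the ribosomal protein genes and that of all genes.

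In MyoD over GFP the share of a list called lower ran from 1.64% for the assembly genes to 11.4% for the proteasome, against 14.5% of all genes, and the share called higher was at most 5.26%, against 16.2% of all genes. The assembly genes had a median of 0.01 with 1 called lower and 3 higher, from Nop10 (-1.09) and Fbl (-0.47) to Polr1a (0.77), a subunit of the polymerase that makes ribosomal RNA, and Bysl (1.005). The translation factors had -0.22 with 2 called in each direction, from Eif5a (-0.77) and Eif4a1 (-0.60) to Eif2s2 (0.61) and Eif4g2 (0.65). Oxidative phosphorylation had -0.03 with 4 called lower and 1 higher, from Cox6b2 (-1.20) and Ndufaf6 (-0.70) to Ndufs8 (0.46) and the striated muscle subunit Cox6a2 (5.97). The assembly list and oxidative phosphorylation were thus near the median of all genes, while the ribosomal protein genes were at -0.25. The mitochondrial ribosomal proteins had -0.06 with 4 called lower and 1 higher, from Mrpl18 (-0.82) and Mrpl36 (-0.76) to Mrps9 (0.57) and Mrpl35 (0.62). The proteasome had -0.19 with 4 called lower and 1 higher, from Psmb10 (-0.77) and Psma7 (-0.74) to Psmd6 (0.42) and Psmc3 (1.15).

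**Figure D5:**
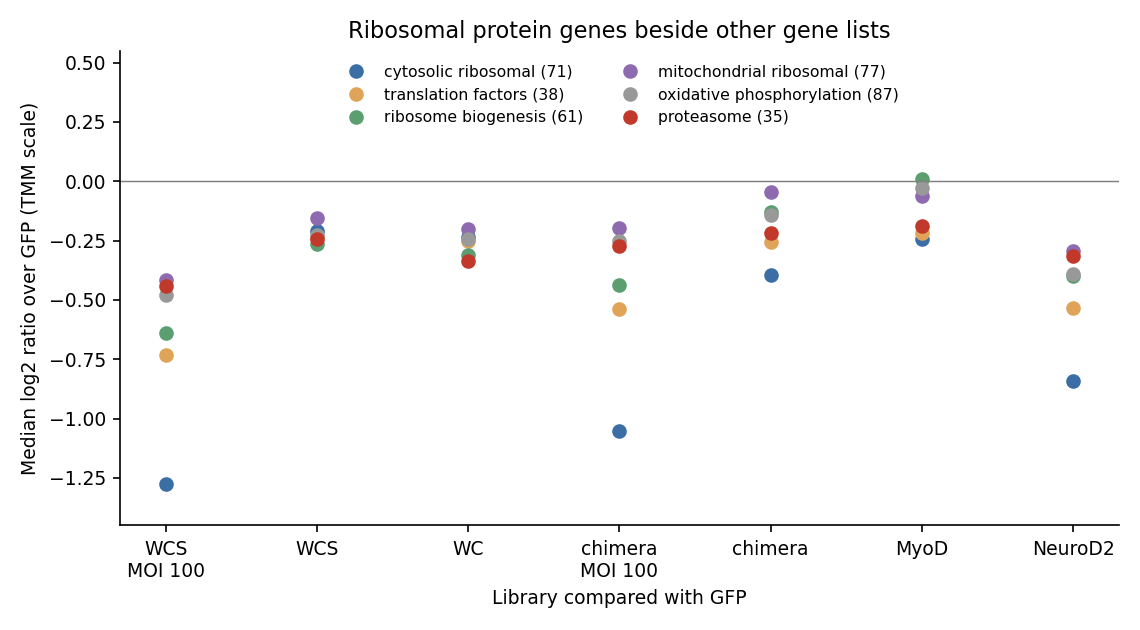
Median log2 ratio over GFP (TMM scale) of the 71 cytosolic ribosomal protein genes (blue) and of 5 other gene lists in the 7 other libraries. The blue points are the lowest of the 6 lists in WCS at MOI 100 (-1.28), the chimera at MOI 100 (-1.05), NeuroD2 (-0.84), the chimera (-0.39) and MyoD (-0.25), there just under the translation factors (-0.22), and lie among the other lists in WCS and WC; all 7 pairs share the GFP library.

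Of the genes known to act on ribosome production, Myc did not follow the family's order across libraries. Myc had 9.78 CPM in WCS at MOI 100, 3.02 in WCS, 2.82 in WC, 5.14 in the chimera at MOI 100, 3.47 in the chimera, 11.6 in MyoD, 7.09 in NeuroD2 and 6.59 CPM in GFP. Mycn, its relative in embryonic and neural cells, had 50.9 CPM in WCS at MOI 100, 90.4 in WCS, 87.1 in WC, 47.8 in the chimera at MOI 100, 67.9 in the chimera, 82.9 in MyoD, 66.1 in NeuroD2 and 56.9 CPM in GFP. Mycn was thus lowest in the 2 libraries at MOI 100, but GFP was next and not highest. Mtor, the kinase named above, had its highest level, 145 CPM, in WCS at MOI 100 and its lowest, 93.5 CPM, in GFP. Larp1, which binds the pyrimidine tract, ranged from 227 CPM in WCS at MOI 100 to 407 CPM in MyoD, with 310 CPM in GFP. Eif4ebp1, an mTOR target that restrains translation, had 74.6 CPM in WCS at MOI 100, 104 in NeuroD2, 133 in the chimera at MOI 100 and 334 in MyoD, against 229 CPM in GFP, so its 3 lowest levels were in the 3 libraries with the lowest ribosomal protein shares. Mdm2, which Rpl5 and Rpl11 can bind, ranged from 45.9 CPM in WCS to 71.9 CPM in WCS at MOI 100, with 49.5 CPM in GFP. Trp53, which Mdm2 restrains, was at 1.36 CPM or less in every library, and Cdkn1a, a cell cycle inhibitor, had 187 CPM in MyoD, 92.4 in the chimera at MOI 100 and 59.9 in the chimera against 5.98 to 13.5 CPM in the rest.

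Genes with and without a long pyrimidine run at the start site lay at nearly the same level below GFP. In WCS at MOI 100 over GFP the 22 genes with a run of at least 10 pyrimidines had a median log2 ratio of -1.25 and a range of -1.62 to -0.82. The 30 genes with start regions but no such run had a median of -1.26 and a range of -2.01 to -0.88. In NeuroD2 over GFP the medians were -0.80 and -0.83, and in the chimera at MOI 100 over GFP they were -1.02 and -1.08. Rpl41 and Rps2, whose start windows printed above hold short runs, were among the genes furthest below GFP, and Rpl10, whose run is as short as that of Rpl41, was among the nearest to GFP in the chimera at MOI 100. The annotated start can lie some bases away from the one used in these cells.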

How the data were processed

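RNA-seq counts of 8 mouse P19 libraries, 1 per group, were analysed. The deposited values are raw read counts by Ensembl gene, made by the authors with CASAVA 1.8.2, TopHat2 2.0.8 and build mm9, per the submitters' processing notes. Which counter, annotation and strand setting were used is not given in the sources used here. All 8 columns were used. Symbols were matched by Ensembl identifier for 32850 of 37558 genes (87.5%). Lengths and GC shares came from the shortest principal coding transcript in GENCODE, and start regions from RefSeq, both on GRCm38, a newer build than mm9.

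CPM used TMM factors (0.935 to 1.09, edgeR 4.0.16), and ratios log2(CPM + 0.5). Genes needed a mean of 5 CPM, and 1.5-fold counted as called. The intervals printed are Clopper-Pearson 95% intervals on the counts of 1 or 2 libraries and cover counting error only. Alternative median log2 ratios were judged against a binomial order-statistic 95% interval of the family's median, over genes and not cultures. With 1 library per group there was no test of groups. The members and all gene lists were chosen with earlier results of these data known. Named genes were those highest and lowest per kb, those with the widest and narrowest share of the family's counts, the 3 highest and 3 lowest in each pair of libraries, examples of each role and fixed regulators. In the comparison lists the highest and lowest genes were named. Some genes that this rule names are not reported here. Alternatives were DESeq2 1.42.0 size factors, total counts, a pseudocount of 2 CPM, no minimum level, a 2-fold threshold, GC subsets, a background of genes above 100 CPM, and shares that include the pseudogenes or the proteins outside the pattern. The scripts ran under Python 3.11.15 (scipy 1.17.1, pandas 2.3.3, matplotlib 3.10.9, numpy 2.4.6) and R 4.3.3, and were checked on simulated counts.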

Additional observations from a re-analysis of the deposited data

Results flagged for a closer look

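WCS and the chimera differed in opposite directions with and without the MOI 100 label, and the difference between the directions was not tested. The family's median log2 ratio was -0.21 in WCS at MOI 100 over the chimera at MOI 100, with all 71 genes lower, and 0.18 in WCS over the chimera, with 61 of 71 genes higher. Both medians stayed under 1.5-fold. The shares of all genes lower or higher by sign in these pairs were not counted. Rn7s6 was at 14.4 CPM in WCS and 0.565 CPM in the chimera. At MOI 100 it was at 1.28 CPM in WCS and 1.21 CPM in the chimera, and its part was not tested. Genes with a mean of at least 100 CPM had medians of -0.12 and -0.02 in these pairs, in the same order.

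One pseudogene row gave a signal outside the family's own genes. Rpl27-ps2 had 15.4 CPM (452 counts) in WCS and 10.1 CPM (289 counts) in NeuroD2, against 0.34 CPM (14 counts) in GFP and 0 to 8 counts in the other 5 libraries. The parent gene Rpl27 had 511 CPM in WCS and 429 CPM in NeuroD2, against 706 CPM in GFP.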

How the results depend on the processing

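No direction turned under any alternative. Scaling to total counts moved the median log2 ratio of the family to -1.06 in WCS at MOI 100 over GFP, -0.13 in WCS, -0.15 in WC, -0.92 in the chimera at MOI 100, -0.29 in the chimera and -0.69 in NeuroD2, each over GFP. It shifted the median of all genes upwards in these pairs, most in WCS at MOI 100 over GFP, by 0.21 (0.19, against -0.02 on the TMM scale). It gave 0.47 in MyoD over NeuroD2, with 22 genes called higher, -0.13 in WCS at MOI 100 over the chimera at MOI 100, -0.63 in the chimera at MOI 100 over the chimera and -0.94 in WCS at MOI 100 over WCS. It left 0 genes called lower in WCS over GFP, 0 in WC over GFP and 3 in the chimera over GFP. DESeq2 size factors gave -0.19 in WCS at MOI 100 over the chimera at MOI 100. Genes at or above the median GC share gave 0.71 in MyoD over NeuroD2, -0.23 in WCS at MOI 100 over the chimera at MOI 100 and -1.16 in WCS at MOI 100 over WCS. At 2-fold, the genes called lower over GFP were 43 in the chimera at MOI 100, 16 in NeuroD2, 1 in the chimera, and 0 in each of WC and WCS. At 2-fold, 47 were lower in WCS at MOI 100 over WCS and 1 in the chimera at MOI 100 over the chimera. At 2-fold, 4 were higher in MyoD over NeuroD2, 0 in WC over the chimera and 0 in WCS over the chimera. With the pseudogene rows described above the shares were 4.03% in WCS at MOI 100, 7.79% in WCS, 7.65% in WC, 4.46% in the chimera at MOI 100, 7.06% in the chimera, 7.41% in MyoD, 5.26% in NeuroD2 and 8.70% in GFP. With the 8 proteins outside the pattern they were 4.70%, 9.02%, 8.86%, 5.21%, 8.23%, 8.58%, 6.12% and 10.1% in that order. The pseudocount of 2 CPM, no minimum level and the genes below the median GC share changed nothing beyond the spread of the genes. The alternative without mitochondrially encoded genes was not run, since no such gene was matched. Among genes with a mean of at least 100 CPM, as all members have, the share of genes called higher was 17.8% in WCS at MOI 100 over GFP, 4.32% in WC over the chimera and 4.73% in WCS over the chimera, and the share called lower was 9.58% in MyoD over GFP and 10.97% in MyoD over NeuroD2. The other shares set beside counts at 1.5-fold moved by less than 1.5 times. The GC subsets and the 100 CPM background were chosen after seeing the data.

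No paired analysis was possible because each group had 1 library. The 4 libraries with little Rn7s6 are both chimera libraries, WCS at MOI 100 and NeuroD2, and 5 of the 13 pairs join libraries of like Rn7s6 level, namely the chimera at MOI 100 over the chimera, WCS at MOI 100 over the chimera at MOI 100, and MyoD, WC and WCS over GFP. Other pairs of like level were not compared. Depth limits little here, since the lowest member had at least 5304 counts in every library.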
